A study of Mus musculus with 23 samples.

Results

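The replication-dependent histone genes were taken as every gene whose name begins Hist1h to Hist4h followed by 1, 2a, 2b, 3 or 4, which gave 69 of the 53715 genes in each expression table. They comprised 6 linker H1, 19 H2A, 19 H2B, 12 H3 and 13 H4 genes, and 2 of them, Hist1h2aj and Hist3h2bb-ps, are annotated as pseudogenes. In GENCODE M21 on GRCm38, 55 lay in Hist1 (chr13:21715763-23934851), 10 in Hist2 (chr3:96219865-96270132), 3 in Hist3 (chr11:58948920-58956830) and 1, Hist4h4, in Hist4 (chr6:136801553-136804415). The study sequenced RNA of 23 mouse samples (9 groups) to ask what the RNA-binding proteins LIN28A and LIN28B do in pluripotent cells and early embryos. The ES cell table held 3 libraries each of Lin28a-null cells, cells labelled Lin28b-null, ilet7 cells given doxycycline for 3 days to switch on let-7 (ilet7 Doxy), ilet7 cells without the drug (ilet7 Ctrl) and wild-type (WT) cells. The iPS cell table held 3 libraries of cells labelled Lin28a/b double knockout (DKO) and 3 of WT cells, the DKO line having been reprogrammed from knockout embryonic fibroblasts. The embryo table held 1 pool of embryos injected as zygotes with siRNA against Lin28a (siLin28) and 1 control (WT) pool, of the C57BL/6J strain. Cells grew on fibroblast feeders in LIF and inhibitors of the MEK and GSK3 kinases, and feeders were depleted before RNA was taken. The study used knockout ES lines that were single CRISPR/Cas9 clones as well as lines from knockout mice, and the labels do not say which these libraries were, so line and genotype cannot be told apart.

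Histone proteins wrap DNA into nucleosomes (H2A, H2B, H3 and H4) and bind the linker DNA between them (H1). Cells need new histones when DNA is copied, and the replication-dependent genes supply them in S phase from clusters of mostly intronless genes. Their mRNAs are the known exception among metazoan mRNAs in ending in a conserved stem-loop in place of a poly-A tail. The stem-loop-binding protein SLBP holds that hairpin, and a complex guided by the U7 small nuclear RNA cuts just after it. When a cell reads past this site, or in differentiating cells, some of these genes also give transcripts with a poly-A tail. All cell libraries were made from RNA captured on poly-T beads, so a histone mRNA without a tail should be largely lost. The embryo cDNA was made by a published small-input protocol, and how it was primed is not given in the sources used here. TPM values of these genes depend on how RNA was selected, and each comparison was made within a table.

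The stem-loop was searched for in every GENCODE M21 transcript of each gene, as a letter pattern for a stem of 6 bases around a loop of 4. A member was counted if any of its transcripts held the stem-loop. It was found in 44 of 69 members, in 6 versions that differ in the stem or the loop. The most common version, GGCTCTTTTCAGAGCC, stood in 26 members of the H1, H2A, H2B and H3 types, and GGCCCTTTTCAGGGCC stood in 7 H4 genes. The following belong to members named in the results and show 5 of the 6 versions. Each is the transcript sequence in DNA letters, with the stem-loop in capitals and its flanks in lower case.
Hist1h4i: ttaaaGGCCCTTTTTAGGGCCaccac
Hist1h4m: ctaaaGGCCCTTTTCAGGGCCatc
Hist1h4h: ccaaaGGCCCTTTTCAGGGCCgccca
Hist1h4j: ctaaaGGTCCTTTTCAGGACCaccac
Hist1h1c: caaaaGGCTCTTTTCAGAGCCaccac
Hist1h2bj: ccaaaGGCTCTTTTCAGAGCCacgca
Hist1h3c: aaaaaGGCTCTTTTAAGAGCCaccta
Hist1h3d: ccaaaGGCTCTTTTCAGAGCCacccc
Hist2h3c1: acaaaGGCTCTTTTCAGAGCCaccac
Hist1h2ap: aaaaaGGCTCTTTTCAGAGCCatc
Hist2h2aa2: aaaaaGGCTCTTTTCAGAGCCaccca
Hist3h2ba: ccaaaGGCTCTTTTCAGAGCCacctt
Hist4h4: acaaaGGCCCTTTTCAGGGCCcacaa
Gene models differ in where they end. The Hist1h4m and Hist1h2ap models stop 3 bases after the stem-loop, whereas those of Hist1h4i, Hist1h1c and Hist4h4 run on for 330, 840 and 2445 bases. By this measure 22 members end within 100 bases of the stem-loop, 22 run further, and 25, Hist1h2bc among them, hold no stem-loop in any annotated transcript. Absence from a model does not show absence from the gene, since a model may end before the stem-loop. The Hist1h4k model is only 312 bases long, and in Hist1h4f, another H4 gene, the stem-loop starts at base 343.

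The sequences before the transcription start were read from RefSeq (GRCm38.p6) for the 60 members that matched, as windows of 250 bases before to 50 after the start. On either strand, TATAAA stood in 56.7% of the 60 windows, against 13.6% of all 32851 promoters in the table. CCAAT stood in 85.0% of the 60, against 37.4% of all promoters. It was in every matched H1, H2A, H2B and H3 window but in 3 of 12 H4 windows. The octamer ATTTGCAT, the site of the POU factor OCT1 in H2B promoters, stood in 7 H2A and 6 H2B windows and in no H1, H3 or H4 window, which made 21.7% of the 60 against 1.74% of all promoters. A match to these letters describes the sequence and shows no binding. The 250 bases before the start of an H4, an H1 and an H2B gene that rose in Lin28a-null cells are shown. They differ in these exact matches, which are in capitals (TATAAA, or CCAAT and its reverse complement ATTGG). Matches were marked at any distance from the start, and near matches were not marked. They lie at chr13:22041363-22041612 on the minus strand (Hist1h4i), chr13:23738557-23738806 on the plus strand (Hist1h1c) and chr13:22042948-22043197 on the plus strand (Hist1h2bj).
Hist1h4i: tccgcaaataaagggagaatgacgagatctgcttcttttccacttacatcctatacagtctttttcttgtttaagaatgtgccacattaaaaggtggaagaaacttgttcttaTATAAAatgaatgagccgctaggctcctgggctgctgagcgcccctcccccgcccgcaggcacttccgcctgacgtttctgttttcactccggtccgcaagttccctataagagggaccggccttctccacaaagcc
Hist1h1c: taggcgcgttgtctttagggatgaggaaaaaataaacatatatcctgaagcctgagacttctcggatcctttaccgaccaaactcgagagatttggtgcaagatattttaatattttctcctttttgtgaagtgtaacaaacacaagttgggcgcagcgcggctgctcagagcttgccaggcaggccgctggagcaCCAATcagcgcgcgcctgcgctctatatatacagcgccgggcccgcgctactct
Hist1h2bj: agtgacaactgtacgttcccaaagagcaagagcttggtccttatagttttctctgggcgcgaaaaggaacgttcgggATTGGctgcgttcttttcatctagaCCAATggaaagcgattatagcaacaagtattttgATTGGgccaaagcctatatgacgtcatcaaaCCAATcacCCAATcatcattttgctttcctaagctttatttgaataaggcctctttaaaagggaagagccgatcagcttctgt
The Hist1h2bj window is shared with its neighbour Hist1h2ag, an H2A gene that starts 270 bases away on the other strand. In all, 15 pairs of members started 173 to 660 bases apart on opposite strands, and 14 of them joined an H2A with an H2B gene.

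The values are TPM, from which read depth cannot be recovered, so the depth behind each value was unknown, and a gene listed at 0 may still have been expressed. No source says that replicates came from separate cultures, and p-values then measure the spread between these libraries only. The targeted genes checked the labels in part. Lin28a was at 14.6, 21.0 and 15.8 TPM in Lin28a-null cells, against 31.5, 61.2 and 32.0 TPM in WT ES cells. Lin28b was at 12.5, 13.8 and 12.6 TPM in the libraries labelled Lin28b-null, against 3.63, 5.18 and 4.69 TPM in WT ES cells, and so was higher. Gene-level TPM cannot show whether targeted exons are read, so these values cannot decide whether a knockout label is right. In the libraries labelled DKO, Lin28a was at 10.5, 11.6 and 9.51 TPM, against 36.2, 16.0 and 24.6 TPM in WT iPS cells, whereas Lin28b, at 10.3, 10.4 and 11.6 against 4.14, 2.16 and 2.17 TPM, was higher. Lin28a was at 3.03 TPM in the siLin28 pool and 15.9 TPM in the WT pool. All 10 pluripotency markers were above 0 in every library, and all 12 fibroblast markers were above 0 in every cell library.

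The level of histone RNA differed most between tables. Summed over the 69 members, the libraries labelled DKO held 12505, 11380 and 12306 TPM, against 12734, 11978 and 11046 TPM in WT iPS cells. The siLin28 and WT embryo pools held 576 and 1009 TPM. ES libraries held 72.3 to 366 TPM, although the labels name poly-T beads for the ES and the iPS libraries alike. The tables were processed separately, so these levels are set side by side without a test. Other RNAs without poly-A tails (Rmrp, Rn7sk, telomerase RNA, Y RNAs and small nucleolar RNAs, 184 genes) moved with this gap, summing to 40357 to 61292 TPM in iPS libraries and 909 to 1756 TPM in ES libraries, and their part in it was not tested.

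The leading members also differed. In iPS cells the 3 highest members were the linker genes Hist1h1a (1388 ± 53.8 TPM in the libraries labelled DKO and 1421 ± 144 TPM in WT, SD, n = 3 each) and Hist1h1b (991 ± 48.1 and 901 ± 84.1 TPM), with Hist1h4f (777 ± 66.4 and 791 ± 36.7 TPM). In Lin28a-null cells, in the libraries labelled Lin28b-null and in WT ES cells alike they were Hist1h1c, Hist1h2bc and Hist1h4i. The embryo pools were led by the H2A genes Hist1h2ao and Hist1h2ap, followed by Hist1h2bc. H2A genes made up 63.5% and 72.4% of histone TPM in the siLin28 and WT pools, and no more than 17.1% in any cell library.

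**Figure D1:**
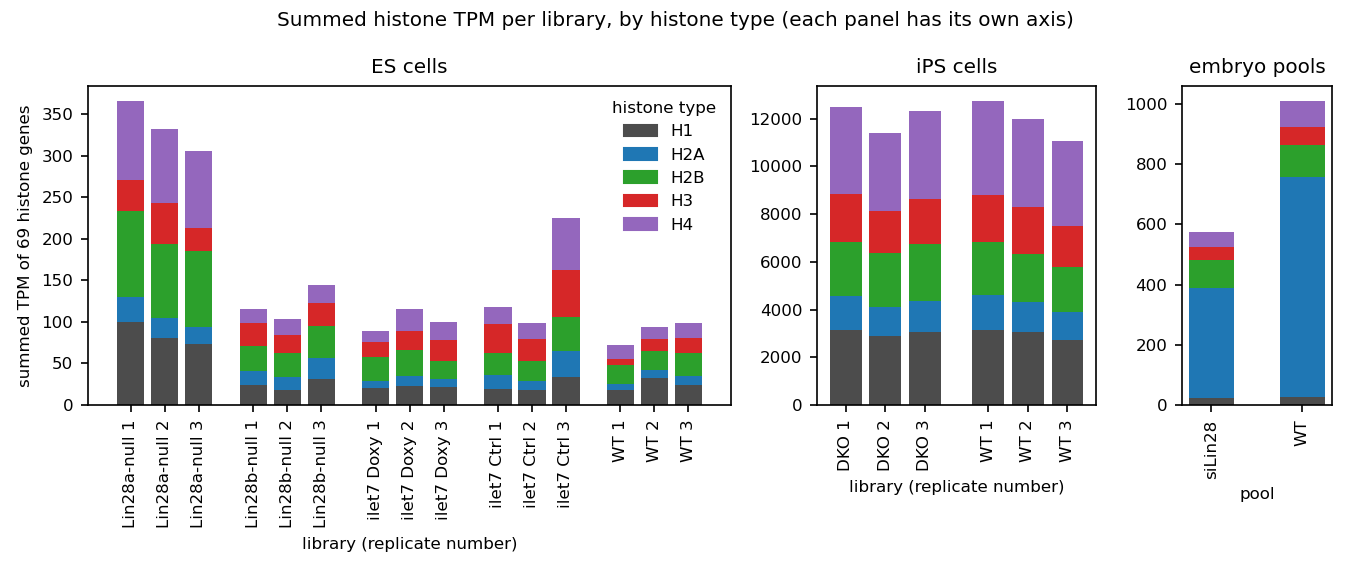
Summed TPM of the 69 histone genes in each library, stacked by histone type, with a separate axis for ES cells, iPS cells and embryo pools. The Lin28a-null libraries, at 306 to 366 TPM, stand above the other ES libraries, of which ilet7 Ctrl replicate 3 is the highest at 225 TPM, and H2A fills most of the 2 embryo bars.

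Histone RNAs were higher in Lin28a-null than in WT ES cells across all 5 types. The sum was 366, 332 and 306 TPM in Lin28a-null libraries, against 72.3, 94.0 and 98.3 TPM in WT libraries, with no overlap. By type, H1 averaged 84.2 ± 13.6 against 24.6 ± 7.37 TPM, H2A 25.2 ± 4.88 against 9.49 ± 1.98, H2B 95.1 ± 7.75 against 24.4 ± 2.04, H3 37.4 ± 10.8 against 13.5 ± 5.599 and H4 92.6 ± 3.20 against 16.2 ± 1.802 TPM (SD, n = 3 each), and in none of the 5 types did the libraries overlap. Hist1h1c, Hist1h2bc and Hist1h4i together gave 188 ± 21.1 TPM in Lin28a-null cells and 39.8 ± 10.0 TPM in WT cells, and the other 66 members gave 147 ± 10.0 and 48.4 ± 9.69 TPM (SD, n = 3 each). In a bulk library, fewer cells that express a gene and less RNA per cell cannot be told apart.

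Of the 69 members, 58 had a higher mean in Lin28a-null cells, 7 a lower one and 4 the same. Averaged over the 6 libraries, 34 members reached 1 TPM and were tested, and 24 of these rose and 0 fell in limma on log2(TPM + 1) at an adjusted p under 0.05 (Benjamini-Hochberg over 16060 genes). Of all genes tested, 20.4% rose and 17.8% fell. At an unadjusted p under 0.05, 26 members were higher and 0 lower. Since a member could pass the filter through the Lin28a-null libraries alone, the count over the 34 is a description. Among all 69, 33 members were higher and 0 lower without overlap between the libraries, against 21.0% and 15.8% of genes above 0 in a library. The median log2 difference of the members tested was 1.23, and that of all genes tested was 0.02, and with no filter on low values the members' median was 0.68.

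H4 genes, which form the core tetramer with H3, included the largest changes. Hist1h4i (ENSMUSG00000060639.5, chr13:22040636-22041362, minus strand) had 47.7, 49.1 and 45.9 TPM in Lin28a-null libraries, against 6.32, 6.08 and 5.51 TPM in WT libraries. The lowest Lin28a-null library was far above the highest WT one, and the log2 difference was 2.80 (SE 0.10, limma adjusted p = 9.89e-06). Hist1h4m (ENSMUSG00000069306.5, chr13:21811746-21812147, plus strand) had 12.0, 7.77 and 6.11 TPM in Lin28a-null libraries, against 0.546, 0.240 and 0.659 TPM in WT libraries, a log2 difference of 2.67 (SE 0.26, adjusted p = 0.000573). It shares 88.1% of its 100-base stretches with other H4 genes, so reads of this family may have been dropped or assigned among its copies. Hist1h4h (10.7, 6.54 and 9.43 against 2.08, 0.741 and 2.66 TPM) and Hist1h4k (7.84, 5.44 and 7.04 against 1.09, 1.05 and 1.38 TPM) also did not overlap, with log2 differences of 1.85 and 1.83 (adjusted p = 0.00442 and 0.000643). In all, 8 of the 9 H4 genes tested rose, and all 13 H4 genes had a higher mean in Lin28a-null cells.

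Linker H1 genes bind where DNA enters and leaves the nucleosome. Hist1h1c (ENSMUSG00000036181.2, chr13:23738808-23740367, plus strand), the most abundant member in these cells, had 89.2, 69.2 and 63.0 TPM in Lin28a-null libraries, against 13.3, 30.5 and 19.9 TPM in WT libraries. WT replicate 2 was the highest of its group but still below every Lin28a-null library, and the log2 difference was 1.81 (SE 0.28, adjusted p = 0.00306). Hist1h1a rose too (7.19, 6.87 and 7.92 against 2.87, 0.703 and 3.498 TPM, log2 difference 1.43, adjusted p = 0.0189). Hist1h1b did not pass (1.47, 2.32 and 1.13 against 1.18, 0.469 and 0.482 TPM, log2 difference 0.63, adjusted p = 0.0983). Hist1h1d, Hist1h1e and the testis linker gene Hist1h1t stayed below the filter, at no more than 0.912 TPM in any library of either group.

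Among the H2A and H2B genes, whose proteins pair as dimers on the outside of the tetramer, Hist1h2bc (ENSMUSG00000018102.5, chr13:23684199-23692908, plus strand) changed most. It had 74.2, 63.3 and 61.3 TPM in Lin28a-null libraries, against 10.7, 13.7 and 13.4 TPM in WT libraries, a log2 difference of 2.31 (SE 0.13, adjusted p = 6.23e-05). Its groups lay far apart, and those of its divergent H2A partner Hist1h2ac, though below the filter, were apart too (1.81, 0.9995 and 1.02 against 0.0787, 0.211 and 0.144 TPM). Rises were found for 6 of 10 H2B, 2 of 3 H2A and 6 of 9 H3 genes tested. Outside Hist1, Hist3h2a had 9.91, 9.18 and 5.20 TPM in Lin28a-null libraries, against 3.59, 3.49 and 3.11 TPM in WT libraries (log2 difference 1.01, adjusted p = 0.0147). Hist3h2ba had 2.40, 1.56 and 2.82 against 0.636, 1.13 and 0.583 TPM (log2 difference 0.86, adjusted p = 0.0235). Neither gene's groups overlapped, but Hist3h2a overlaps Trim17 on the same strand, whose reads could be counted with it. Hist3h2bb-ps was listed at 0 in all Lin28a-null libraries and in 2 of 3 WT libraries, and Hist4h4 had 0.258, 0.311 and 0.529 against 0.0698, 0 and 0.125 TPM.

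**Figure D2:**
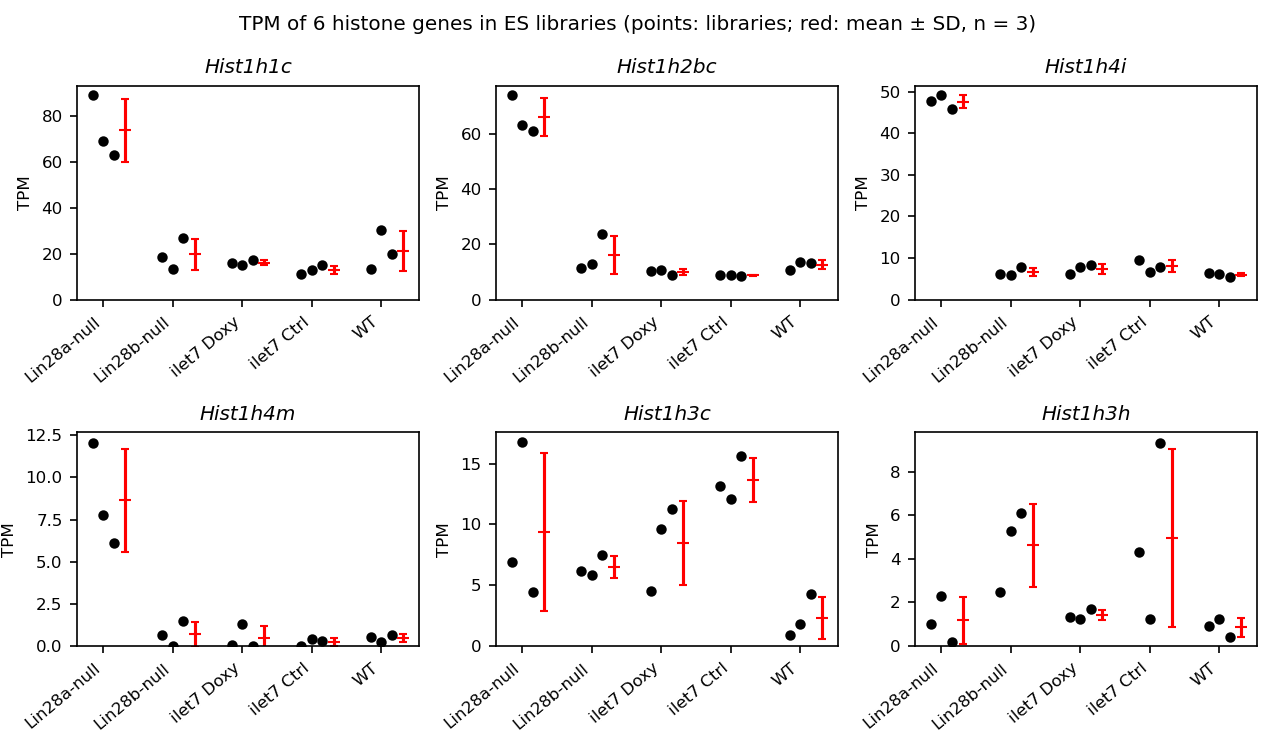
TPM of 6 histone genes in the 15 ES libraries, with one point per library and the mean ± SD of each group in red (n = 3). Hist1h1c, Hist1h2bc, Hist1h4i and Hist1h4m are high in the Lin28a-null libraries only, while Hist1h3c is also high in ilet7 libraries. Hist1h3h is high in the libraries labelled Lin28b-null and in ilet7 Ctrl replicates 1 and 3.

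The rises were spread along the Hist1 cluster. A gap of more than 500 kb splits Hist1 into a stretch of 24 genes (chr13:21715763-22043676) and one of 31 genes (chr13:23531050-23934851). In the first, 8 of 14 members tested rose, with a median log2 difference of 1.15, and in the second 12 of 15 rose, with a median of 1.34. Hist2 had 2 rises among 3 members tested (Hist2h3c1 and Hist2h3c2). Where the model ended within 100 bases of the stem-loop 10 of 11 members tested rose, where it ran further 10 of 12 rose, and where it held no stem-loop 4 of 11 rose, with medians of 1.34, 1.11 and 0.63. These classes describe the annotated models, some of which may end before a stem-loop. CCAAT stood in 68.2% of the 22 rising members with a promoter window and in all 9 tested members that did not pass, and TATAAA in 54.5% and 77.8%. All 9 of the member windows without CCAAT belonged to H4 genes.

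**Figure D3:**
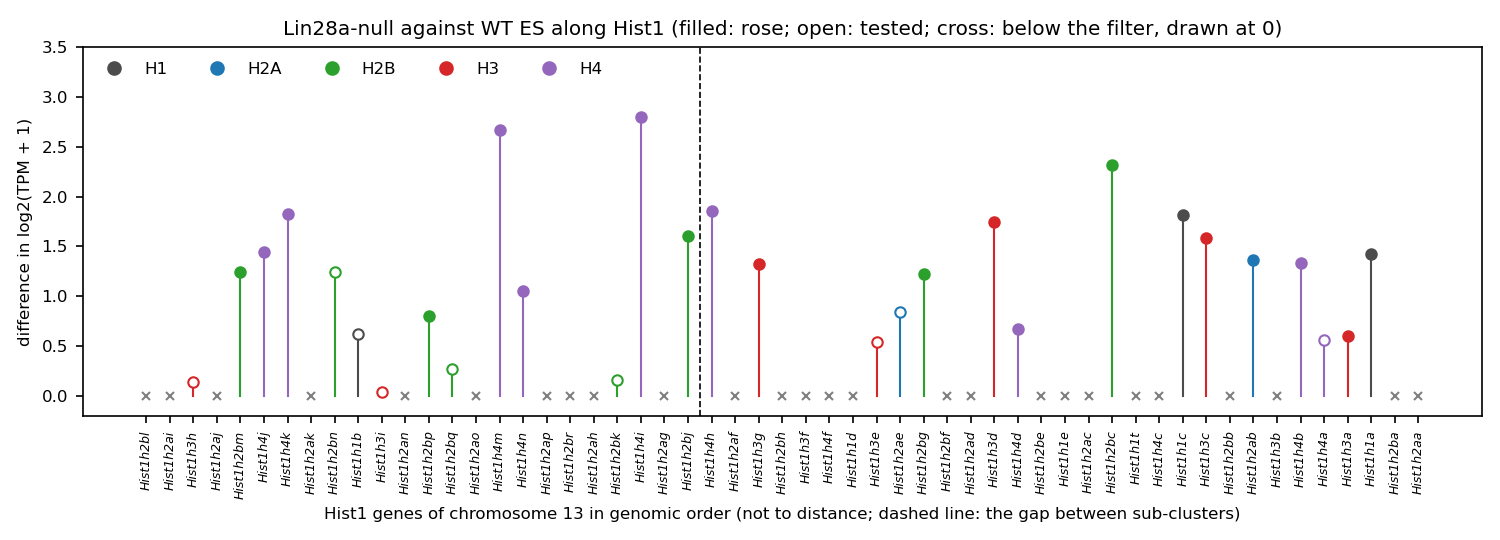
Difference in log2(TPM + 1) between Lin28a-null and WT ES cells for the 55 Hist1 genes in genomic order, coloured by histone type, with filled points for genes that rose, open points for other genes tested, and crosses at 0 for genes below the filter. Rises stand on both sides of the gap, marked by the dashed line, with Hist1h4i (2.80) and Hist1h2bc (2.31) the highest of the first and the second stretch.

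Other measures moved beside these rises. Of the 12 fibroblast and feeder markers 11 rose in Lin28a-null cells (median log2 difference 1.82), and their sum was 4450, 3391 and 3388 TPM, against 1489, 2775 and 1602 TPM in WT cells. Of the 184 RNAs without poly-A tails 80 were tested, of which 27 rose and 1 fell (median 0.59), and their sum was 1574, 1756 and 1375 TPM, against 942, 1157 and 909 TPM. Their part in the histone rises was not tested. Of 30 S phase genes 1 rose and 1 fell, with a median of 0.04. Leaving out Lin28a-null replicate 1 or WT replicate 1 lowered the count of rising members to 14 or 15.

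Genes of the histone mRNA machinery mostly changed by less. Of 18 tested, 6 rose and 2 fell, with a median of 0.18. The stem-loop-binding protein gene Slbp averaged 144 TPM in Lin28a-null cells and 118 TPM in WT cells (log2 difference 0.28, adjusted p = 0.0278). Npat, the coactivator of histone gene transcription, rose by 0.36, and Srrt, which links the mRNA cap complex to 3′ processing, rose by 1.00 (382 against 189 TPM). Lsm11, a protein of the U7 particle, fell by 0.71 (2.70 against 5.08 TPM), and the endonuclease gene Cpsf3 fell by 0.39. Replacement histones, which are also made outside S phase and mostly from polyadenylated mRNAs, went both ways. Of 11 tested, H2afz (0.32) and H1f0 (0.71) rose, while H2afy (−0.44), H2afy2 (−0.33) and H2afj (−0.88) fell. Of 17 histone chaperones 5 rose and 1 fell.

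The libraries labelled Lin28b-null, in which Lin28b itself was higher than in WT, were set against the same WT libraries. Their summed histone TPM was 115, 104 and 144, above every WT library but below every Lin28a-null library. Of the 69 members 48 had a higher and 18 a lower mean. Of 28 members tested, 7 rose and 0 fell, where 13.4% of all genes tested rose and 15.1% fell, and at an unadjusted p under 0.05 there were 7 higher and 1 lower. Without overlap, 9 members were higher and 1 lower, against 14.6% and 16.6% of genes above 0. The median of the members tested was 0.43, and that of all genes tested −0.01. The members' median was 0.24 without WT replicate 1, 0.23 without replicate 3 of the libraries labelled Lin28b-null, and 0.18 with no filter.

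The members that rose here were mostly of low level. Hist1h3h had 2.49, 5.29 and 6.12 TPM in the libraries labelled Lin28b-null, against 0.914, 1.26 and 0.398 TPM in WT libraries (log2 difference 1.56, adjusted p = 0.0120). Hist1h3c had 6.15, 5.84 and 7.51 against 0.930, 1.797 and 4.26 TPM (1.29, adjusted p = 0.0336). Neither overlapped, though 92.0% of the 100-base stretches of Hist1h3h are shared with other members. The other rises were Hist1h2ae (1.34), Hist1h2ak (1.19), Hist1h2bp (0.89), Hist1h2bm (0.85) and Hist1h4k (0.82). Leaving out any 1 library lowered the count to between 2 and 4, and it was 2 without WT replicate 1 or replicate 1 or 3 of the libraries labelled Lin28b-null. The 3 most abundant members did not pass. Hist1h1c had 18.7, 13.4 and 26.8 TPM (log2 difference −0.08, adjusted p = 0.874), Hist1h2bc 11.3, 12.9 and 23.9 TPM (0.26, adjusted p = 0.504) and Hist1h4i 6.25, 5.82 and 7.71 TPM (0.12, adjusted p = 0.634), and each of them overlapped WT. Here no feeder marker rose and 1 fell, while 18 of 76 RNAs without poly-A tails rose and 1 fell.

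Set directly against each other, Lin28a-null libraries exceeded the libraries labelled Lin28b-null in 15 of 36 members tested and were lower in 1. Of all genes tested, 25.8% were higher and 21.1% lower. A member could pass the filter through 1 group alone, so the count over the 36 is a description. Among all 69, 22 members were higher and 1 lower without overlap, against 23.8% and 16.6% of genes above 0 in a library. The median of the members tested was 0.58, against 0.02 over all genes tested. It was 0.38 with no filter and 0.28 after quantile normalization. Hist1h4i (log2 difference 2.68, adjusted p = 2.13e-05), Hist1h4m (2.55), Hist1h4h (2.37), Hist2h3c1 (2.30), Hist1h2bc (2.05) and Hist1h1c (1.89) differed most. The gene lower in Lin28a-null libraries was Hist1h3h (1.03, 2.32 and 0.195 against 2.49, 5.29 and 6.12 TPM, −1.42, adjusted p = 0.0311). Falls numbered 2 without Lin28a-null replicate 2, and 0 without Lin28a-null replicate 1 or 3 or without replicate 2 or 3 of the libraries labelled Lin28b-null. By type, 7 of 9 H4 genes and 1 of 6 H2A genes were higher, and all 12 feeder markers were higher in Lin28a-null libraries.

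**Figure D4:**
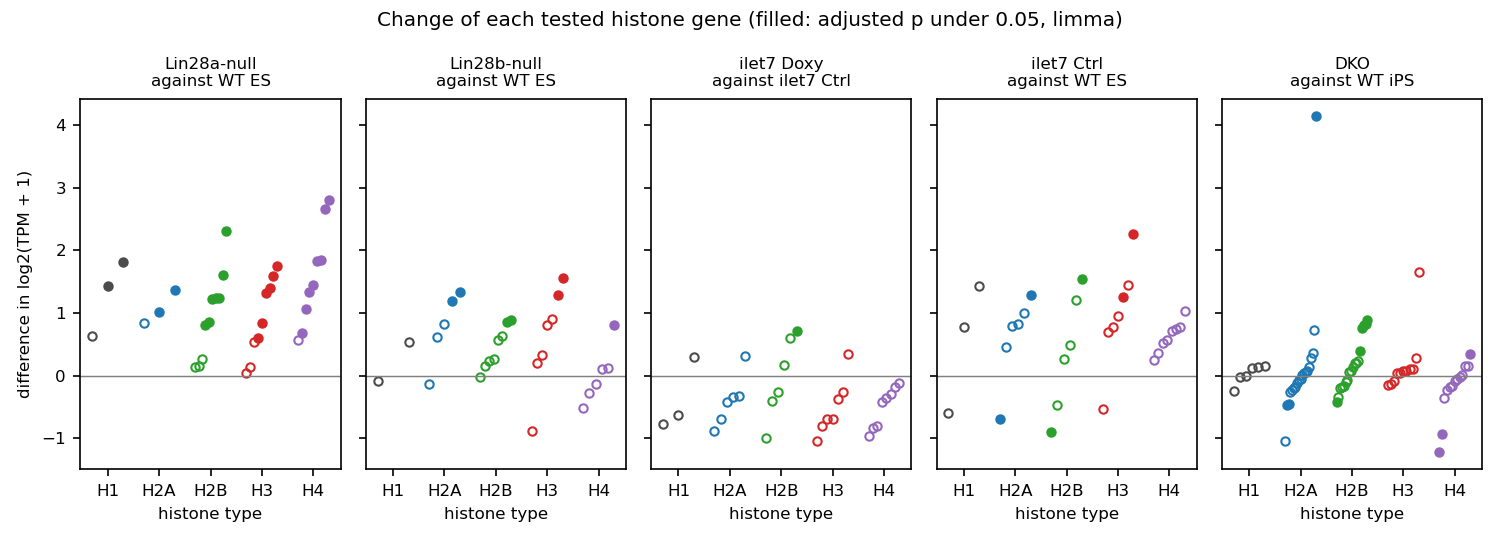
Difference in log2(TPM + 1) of each tested histone gene in 5 comparisons, grouped by histone type, with filled points for genes at an adjusted p under 0.05. In Lin28a-null cells the points of every type lie above 0, in ilet7 Doxy against ilet7 Ctrl most lie below 0 with 1 filled, and in iPS cells most lie near 0 apart from Hist2h2aa2 at 4.15.

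Switching on let-7, a microRNA family that LIN28 blocks and that in turn represses Lin28a, gave little change in histone genes beyond the replicate spread. Lin28a was at 7.32, 6.26 and 6.94 TPM in ilet7 Doxy cells, against 24.9, 20.4 and 23.7 TPM in ilet7 Ctrl cells. Summed histone TPM was 89.5, 116 and 99.9 in ilet7 Doxy libraries, against 118, 98.9 and 225 in ilet7 Ctrl libraries, and the groups overlapped. Of the 69 members 15 had a higher and 51 a lower mean. Of 30 tested, 1 rose and 0 fell, where 13.3% of all genes tested rose and 5.68% fell, and at an unadjusted p under 0.05 there were 2 higher and 5 lower. Without overlap, 4 members were higher and 7 lower, against 18.0% and 9.13% of genes above 0. Falls numbered 2 without replicate 2 of ilet7 Doxy or of ilet7 Ctrl and 1 without ilet7 Doxy replicate 3. The median was −0.40, against 0.06 over all genes tested, and it was −0.15 without ilet7 Ctrl replicate 3, −0.60 without its replicate 1 and −0.67 without its replicate 2.

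That library stood apart in its histone RNAs. It was the highest of its group in 48 of the 65 members that varied, with Hist1h4k at 1.54, 1.51 and 12.7 TPM and Hist1h1a at 6.31, 4.33 and 14.0 TPM in the 3 ilet7 Ctrl libraries. Its Rmrp and Rn7sk, RNAs without a tail, were at 196 and 153 TPM, where no other ES library passed 22.7 and 28.1 TPM. Yet its Hist1h1c (14.8 TPM), Hist1h2bc (8.60 TPM) and Hist1h4i (7.90 TPM) lay close to the other ilet7 libraries.

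The only member called was Hist3h2ba, at 2.97, 1.72 and 1.98 TPM in ilet7 Doxy libraries, against 0.810, 1.13 and 0.892 TPM in ilet7 Ctrl libraries (log2 difference 0.71, adjusted p = 0.0424), and it was not called when any 1 of the 6 libraries was left out. Hist1h1c had 16.0, 15.1 and 17.2 against 11.3, 12.8 and 14.8 TPM, with no overlap but not past the threshold (0.30, adjusted p = 0.114). Of 30 S phase genes 1 rose and 5 fell, and of 11 feeder markers tested 5 rose.

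The 2 lines without a knockout or drug differed from each other as well. Lin28a itself was lower in the ilet7 Ctrl libraries (24.9, 20.4 and 23.7 TPM) than in every WT ES library (31.5, 61.2 and 32.0 TPM). Means of 55 of the 69 members were higher, and of 11 lower, in ilet7 Ctrl than in WT ES cells. Without overlap, 10 members were higher and 5 lower. Against the same WT libraries, Lin28a-null cells had 58 higher and 7 lower means, with 33 higher and 0 lower without overlap. Of 30 members tested, 4 rose and 2 fell in ilet7 Ctrl against WT ES cells, where 9.18% of all genes tested rose and 8.46% fell. The members' median was 0.76, and it was 0.38 without ilet7 Ctrl replicate 3 and 0.36 with no filter. Hist1h3c had 13.2, 12.1 and 15.6 TPM in ilet7 Ctrl libraries, against 0.930, 1.797 and 4.26 TPM in WT libraries (log2 difference 2.26, adjusted p = 0.00757). Every ilet7 Ctrl library was far above WT, a larger gap than that of Hist1h3c in Lin28a-null cells (6.93, 16.8 and 4.46 TPM, log2 difference 1.59, adjusted p = 0.0462), and both comparisons used the same WT libraries. Hist1h2bk (1.55), Hist1h2ak (1.28) and Hist1h3e (1.26) also rose, and Hist1h2bq (−0.90) and Hist3h2a (−0.69) fell. There were 2 rises without WT replicate 1 or ilet7 Ctrl replicate 1 or 3, 1 fall without WT replicate 1, and 0 falls without WT replicate 3 or any 1 ilet7 Ctrl library. Of 11 feeder markers tested 0 rose and 5 fell.

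In iPS cells, where all members but Hist2h2bb and Hist2h3b were tested, the histone genes as a whole were level. Of 67 members 35 had a higher and 32 a lower mean in the libraries labelled DKO, and the median was 0.02, against 0.04 over all genes tested. The test called 7 rises and 5 falls, where 8.77% of all genes tested rose and 7.51% fell. Type shares hardly differed, with H1 at 25.1% and 25.0% and H4 at 29.2% and 31.3% of histone TPM in the libraries labelled DKO and in WT. None of the 6 linker genes passed, their log2 differences lying between −0.24 (Hist1h1e) and 0.16 (Hist1h1d).

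Of the 7 rises 5 were in H2B genes, of which 18 were tested, and the number of rises lay near the share over all genes (8.77%). Hist1h2bn had 141, 156 and 156 TPM in the libraries labelled DKO, against 93.0, 82.7 and 79.9 TPM in WT libraries (log2 difference 0.82, adjusted p = 0.00169). Hist1h2bh had 39.3, 41.3 and 34.5 against 26.3, 18.1 and 17.7 TPM (0.88, adjusted p = 0.0141), and Hist3h2ba had 21.4, 18.3 and 20.0 against 11.5, 9.70 and 11.8 TPM (0.80, adjusted p = 0.00796). None of the 3 overlapped between groups. Hist1h2be (0.77), Hist1h2bm (0.39) and the H4 gene Hist1h4j (0.35) also rose, although Hist1h2be overlaps Hist1h1e on the same strand. The largest difference belonged to Hist2h2aa2 (ENSMUSG00000064220.6, chr3:96245497-96246082, plus strand), at 141, 149 and 142 TPM in the libraries labelled DKO, against 23.9, 0 and 20.7 TPM in WT (4.15, SE 1.14, adjusted p = 0.0490). It was 2.64 without WT iPS replicate 2, the library listed at 0. The names of Hist2h2aa1 and Hist2h2aa2 are exchanged in GENCODE M21, so both genes were matched by identifier and keep their names in the deposited tables. Hist2h2aa2 shares 88.1% of its 100-base stretches with other members and its duplicate Hist2h2aa1 shares all, and Hist2h2aa1 was at 0 in all 3 libraries labelled DKO, against 7.68, 0 and 0 TPM in WT. Most reads of this pair could not be placed on one copy, so its value is uncertain, and it lost its call under several settings.

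Falls were led by 2 H4 genes. Hist1h4m had 25.6, 27.8 and 34.1 TPM in the libraries labelled DKO, against 70.8, 70.1 and 66.0 TPM in WT iPS cells (log2 difference −1.22, adjusted p = 0.00104). Hist4h4 (ENSMUSG00000096010.2, chr6:136801553-136804415, minus strand), the single member of Hist4, had 46.6, 43.5 and 46.2 against 84.6, 89.5 and 88.2 TPM (−0.93, adjusted p = 0.000511). Both were well below WT in every library, and Hist4h4 shares none of its 100-base stretches with another member. Hist1h2ah (−0.47), Hist1h2ae (−0.46) and Hist1h2bq (−0.42) fell as well. Hist1h4m thus rose in Lin28a-null ES cells and fell in the libraries labelled DKO, in which Lin28a was also lower than in its WT; the difference between these effects was not tested. Leaving out 1 library moved the rises to between 2 (without replicate 1 or 2 labelled DKO) and 8 and the falls to between 3 and 5. Rises numbered 3 without replicate 3 of either group and 4 without WT replicate 2, and falls 3 without replicate 1 or 2 labelled DKO or WT replicate 1. WT replicate 1 was the highest of its group in 46 of 67 members and WT replicate 3 the lowest in 45. Of 133 RNAs without poly-A tails tested 0 rose and 9 fell, of 12 feeder markers 3 rose and 0 fell, and of 18 histone mRNA machinery genes limma called 0 (2 higher and 2 lower at an unadjusted p under 0.05).

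In the embryos, which have no replicates and so no test, histone RNAs were lower in the siLin28 pool. Their sum was 576 TPM in the siLin28 pool and 1009 TPM in the WT pool. Of 69 members 47 averaged 1 TPM or more, and of these 7 were higher and 40 lower, with a median log2 difference of −0.60 on the log2(TPM + 1) scale, against 0.03 over 14875 genes. At least 2-fold apart were 0 higher and 12 lower members, where 8.28% of all genes were 2-fold higher and 7.31% 2-fold lower. The 12 comprised 4 of 15 H2A, 2 of 11 H2B, 2 of 9 H3 and 4 of 10 H4 genes, and neither of the 2 H1 genes that passed the filter.

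H2A genes carried most of the histone TPM of the pools and most of the gap. Hist1h2ap was at 132 TPM in the siLin28 pool and 325 TPM in the WT pool (log2 difference −1.29), and Hist1h2ao at 157 and 226 TPM (−0.52). These 2 genes share 92.2% and 92.7% of their 100-base stretches with other members, so the split between them is uncertain, and both were lower in the siLin28 pool. The pseudogene Hist1h2aj was at 17.5 and 66.0 TPM (−1.86) and Hist1h2ad at 2.33 and 13.1 TPM (−2.09), the largest drop. In the separately processed cell tables neither gene led, Hist1h2ap reaching at most 7.30 TPM and Hist1h2ao 48.1 TPM in an iPS library, and 0.763 and 0.856 TPM in an ES library.

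The other types differed by less in summed TPM, although the median log2 difference of the H3 members that passed the filter was −0.84, against −0.78 for H2A, −0.43 for H2B and −0.56 for H4. Hist1h2bc, the highest H2B gene, was level at 76.4 TPM in the siLin28 pool and 75.4 TPM in the WT pool. Among H4 genes, Hist1h4i was at 18.3 and 38.9 TPM (−1.05), and Hist1h4d at 21.2 and 24.6 TPM (−0.20). The linker genes went apart, Hist1h1b at 10.1 and 17.2 TPM (−0.72) and Hist1h1c at 9.98 and 6.34 TPM (0.58). The H3 gene Hist1h3g, at 15.2 and 8.18 TPM (0.82), was the largest excess in the siLin28 pool among members that passed the filter. In Hist3, Hist3h2a was at 5.46 and 10.4 TPM and Hist3h2ba at 1.28 and 0.324 TPM, and Hist4h4 stayed at 0.163 and 0.234 TPM.

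**Figure D5:**
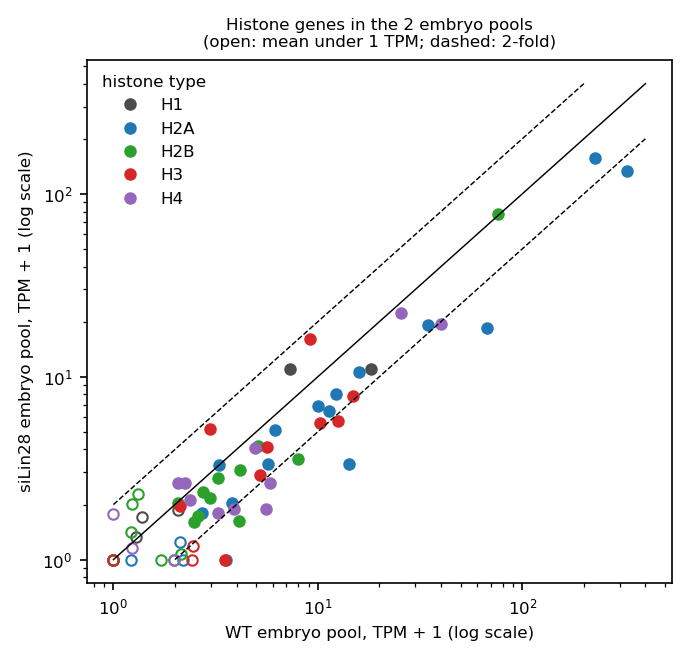
TPM + 1 of each histone gene in the siLin28 pool (vertical axis) and the WT pool (horizontal axis), both on log scales, coloured by histone type, with open points for genes whose mean is under 1 TPM and dashed lines at 2-fold. Most points lie below the line of equality, Hist1h2ap at 132 and 325 TPM among them, and no filled point lies above the upper dashed line.

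Replacement histones differed little. Of 10 genes that passed the filter 4 were higher and 6 lower in the siLin28 pool, 0 were 2-fold apart, and the median log2 difference was −0.046. Their sum was 4062 TPM in the siLin28 pool and 3829 TPM in the WT pool, with H2afx at 534 and 349 TPM, H2afz at 1216 and 1183 TPM and H3f3b at 913 and 932 TPM. S phase genes summed to 3335 and 3026 TPM, and Slbp was at 112 and 123 TPM. Of 10 pluripotency markers 2 were at least 2-fold lower in the siLin28 pool, and all 5 trophectoderm markers that passed the filter were lower (median −0.38). Of the 12 fibroblast markers 5 were at 0 in the siLin28 pool and 4 in the WT pool. The part of these markers in the histone difference was not tested.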

How the data were processed

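Gene-level TPM values were deposited in 3 tables (ES cells, iPS cells, embryo pools). Per the study's methods and the submitters' processing notes, the authors made TPM from reads called with CASAVA 1.8 by trimming (Trimmomatic 0.36) and alignment to mm10 (HISAT2), removed duplicates with Picard, kept uniquely mapped reads and ran StringTie 1.3.4d over GENCODE M18. Unique mapping lowers values of near-identical histone genes. Columns summed to 999488 to 999886 TPM.

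Groups came from sample titles, which also decided the embryo control. In each of 6 comparisons limma 3.58.1 (R 4.3.3) was fitted to log2(TPM + 1) of the genes that averaged 1 TPM or more in the 2 groups, with a variance trend, two-sided p-values and Benjamini-Hochberg adjustment across every gene fitted. Fold changes on this scale understate changes of low genes. Rises and falls had an adjusted p under 0.05. Embryo pools were compared without a test. The script was tested on simulated data. Stem-loops, lengths and shared 100-base stretches used GENCODE M21 (GRCm38), and promoters RefSeq, matched by symbol, synonym and position.

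Named were the 6 largest rises and falls per comparison, the 3 highest members per group, linker genes, Hist3 and Hist4. Any other member was picked with its values in view. The members and lists were chosen with earlier results of these data known. Alternatives were another pseudocount (0.1), a filter of 5 TPM or none, quantile normalization, rescaling without RNAs lacking poly-A tails, the replicate number as a block, all ES libraries in one fit, and leaving out each library.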

Additional observations from a re-analysis of the deposited data

Results flagged for a closer look

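Set against the same WT ES libraries, the Lin28a-null effect differed from that in the libraries labelled Lin28b-null for 16 of 36 histone genes tested. This was the direct limma contrast of the 2 groups (adjusted p under 0.05 over all genes tested). Over all genes tested in it, 25.8% were higher and 21.1% lower in Lin28a-null libraries. With both directions pooled the count lies near the share over all genes, but 15 members were higher and 1 lower. A member could pass the filter through 1 group alone. The difference in log2 units was above 2 for Hist1h4i (2.68), Hist1h4m (2.55), Hist1h4h (2.37), Hist2h3c1 (2.30) and Hist1h2bc (2.05). It lay between 1 and 2 for Hist1h1c (1.89), Hist1h3d (1.49), Hist1h2bj (1.46), Hist1h4b (1.23), Hist1h4n (1.20), Hist3h2a (1.15), Hist3h2ba (1.10) and Hist1h4k (1.01). It was 0.95 for Hist1h4d and 0.89 for Hist1h1a, and for Hist1h3h it ran the other way (−1.42). Lin28b itself was higher than WT in the libraries labelled Lin28b-null.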

How the results depend on the processing

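The direction of the median log2 difference of the histone genes tested held under each alternative in every ES comparison, while the iPS median moved between −0.061 and 0.091 as libraries were left out, on both sides of 0. With 1 library left out, Lin28a-null against WT gave 14 to 20 rises, 0 falls and medians of 1.01 to 1.23; the libraries labelled Lin28b-null against WT gave 2 to 4, 0 and 0.23 to 0.62. Lin28a-null against the libraries labelled Lin28b-null gave 13 to 16 rises, 0 to 2 falls and 0.51 to 0.76, ilet7 Doxy against Ctrl 0, 0 to 2 and −0.67 to −0.15, ilet7 Ctrl against WT 2 to 4, 0 to 2 and 0.38 to 1.06, and the libraries labelled DKO against WT iPS 2 to 8 rises and 3 to 5 falls.

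With a pseudocount of 0.1 the medians were 1.78 (Lin28a-null), 0.70 (labelled Lin28b-null) and 0.89 (the direct contrast of these groups, with 0 falls), and the embryo counts were 1 higher and 19 lower. With a mean of at least 5 TPM, which leaves fewer genes, there were 6 rises and a median of 1.83 (Lin28a-null), 0 and 0.12 (labelled Lin28b-null), 5 rises, 0 falls and 1.15 (direct contrast), 0 rises (ilet7 Doxy), 1 rise and 1 fall (ilet7 Ctrl), and 5 lower embryo members. With no filter the medians were 0.68, 0.18 and 0.38 in the same order, with 0 falls in the last, 0 rises and 1 fall for ilet7 Doxy, 2 rises and 0 falls for ilet7 Ctrl and 3 rises for the libraries labelled DKO. Quantile normalization gave 16 rises and a median of 0.95 for Lin28a-null, a median of 0.28 and 4 falls for the direct contrast, and 0 rises for ilet7 Doxy. All ES libraries in one fit gave 1 fall for the libraries labelled Lin28b-null, 0 rises for ilet7 Doxy and 8 rises for ilet7 Ctrl. The cause of these changes was not tested. Rescaling without RNAs lacking poly-A tails bears on nothing in ES cells, where they make up at most 1756 TPM of a library.

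Same-numbered libraries showed no clear pairing, their deviations from the group means correlating at −0.14 to 0.13. Such values cannot exclude a batch shared by replicate number. With the replicate block there were 19 rises for Lin28a-null, 4 for the libraries labelled Lin28b-null, 0 for ilet7 Doxy, 0 falls for ilet7 Ctrl, and 4 rises and 3 falls for the libraries labelled DKO. Hist2h2aa2, called in the libraries labelled DKO, had an adjusted p of 0.0538 under the block, 0.120 with a pseudocount of 0.1 and 0.0985 with no filter.

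Of the genes named, those that changed sign had not passed the test. Against WT ES, Hist1h1c in the libraries labelled Lin28b-null ranged from −0.36 to 0.20 with 1 library left out, and Hist1h2bc from −0.047 to 0.46. Between iPS groups quantile normalization gave 0.11 for Hist1h1a, 0.0045 for Hist1h1c and 0.0053 for Hist1h4f. With 1 iPS library left out, Hist1h1a ranged from −0.11 to 0.028, Hist1h1c from −0.095 to 0.055, Hist1h4f from −0.079 to 0.042 and Hist3h2bb-ps from −0.017 to 0.49. Of the single-gene values, 39 lost and 5 gained significance under these settings, and 87 lost and 1 gained it with 1 library left out. TPM keep no depth, so the precision of low members is unknown.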
